A study of Homo sapiens with 2 samples.

Results

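The genes described here bind retinoic acid, make it, break it down or respond to it. They were CRABP1 and CRABP2 (binding), ALDH1A1, ALDH1A2 and ALDH1A3 (synthesis), CYP26A1 (breakdown) and RARA, RARB and RARG (receptors). A probe set, the unit of the exon array that reports on 1 exon or part of it, was taken for a member when the platform annotation listed that gene alone. This gave 127 probe sets for the 9 genes, out of 16920 gene symbols on the array, and no probe set shared with another gene listed a member. RNA came from HCT116-DKO cells, a derivative of the colorectal cancer line HCT116 with both copies of DNMT1 and of DNMT3B disrupted (HCT116 DNMT1-/- DNMT3b -/-), and from HCT116-WT, the parental line. Both lines were grown untreated in the same medium, HCT116-DKO being the single derived line DKO1. Each line gave 1 array, so no value here carries an error between replicates and no p-value is given. Genotype, clone and array cannot be told apart.

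Retinoic acid is made from vitamin A: retinol is oxidised to retinal, and the retinaldehyde dehydrogenases of the ALDH1A family turn retinal into retinoic acid. Inside the cell CRABP2 carries it to the nuclear receptors RARA, RARB and RARG, whereas CRABP1 holds it in the cytosol, and CYP26A1 oxidises it for removal. The receptors bind DNA with a retinoid X receptor (RXR) partner at repeated half-sites near target genes, RARB and CYP26A1 among them. In the intestinal epithelium retinoic acid takes part in differentiation, and RARB and CRABP1 are known as genes with methylated promoters in colorectal tumours. The question put to the arrays was which of these transcripts differed between the knockout line and its parent.

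The targeted genes had lower signal in HCT116-DKO, with DNMT1 at a log2 level of 9.36 in HCT116-DKO and 10.63 in HCT116-WT, and DNMT3B at 6.91 in HCT116-DKO and 8.32 in HCT116-WT. DNMT1 was still above background in HCT116-DKO. Of 14 epithelial and colon markers 0 were called (median difference -0.047), and 10 were above background in both arrays, while the colon markers KRT20, VIL1, LGALS4 and CEACAM5 were above background in neither. Of 10 mesenchymal markers 1 was called, THY1, and 3 were above background in both arrays. Of 5 blood and 5 endothelial markers 0 were called and 0 were above background in both arrays. Of 3 neural markers 0 were called, but 2, MAP2 and GFAP, were above background in both arrays. The summed linear signal of the mesenchymal list was 1354 in HCT116-DKO and 1250 in HCT116-WT, that of the blood list 388 in HCT116-DKO and 363 in HCT116-WT, and that of the endothelial list 375 in HCT116-DKO and 357 in HCT116-WT. That of the neural list was 462 in HCT116-DKO and 505 in HCT116-WT, and that of the epithelial and colon list 28796 in HCT116-DKO and 25691 in HCT116-WT. The part of other cell types in the results was not tested.

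A gene level is the median polish of its probe sets on the log2 scale, and each difference was taken as the HCT116-DKO level minus that of HCT116-WT. A level was above background when it exceeded that of 95% of 286 olfactory receptor genes, taken here as mostly silent. Whether these cells use any of them was not tested. This limit was 7.30 in HCT116-DKO and 7.08 in HCT116-WT. Genes with 3 or more probe sets entered the comparison. The call asked for a log2 difference of 1 or more, for 75% or more of the probe sets on the same side of 0, and for a level above background in the brighter array. By these rules 433 of 16253 genes (2.66%) were higher in HCT116-DKO and 87 (0.535%) were lower. Among the 9 retinoic acid genes 1 was higher, CRABP1, and 1 was lower, CRABP2, while 7 were not called. The median difference was -0.0026 over the 9 genes and 0.022 over all 16253. With 9 genes, 1 call in a direction is too few to set against these shares.

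**Figure D1:**
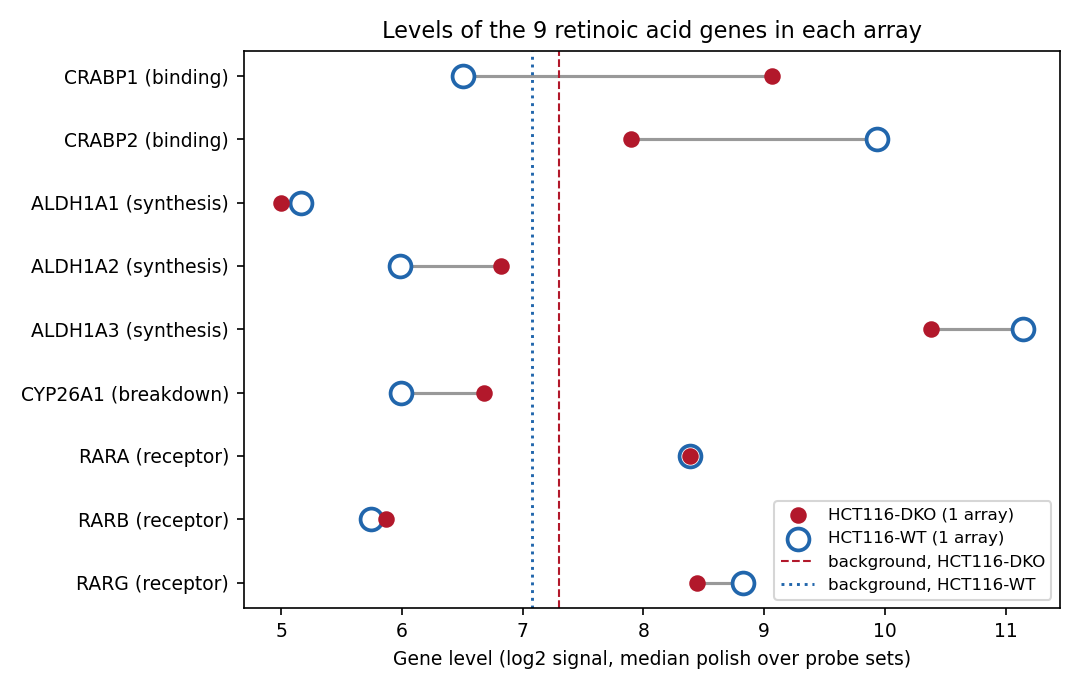
Level of each gene on the log2 scale in HCT116-DKO (filled) and HCT116-WT (open), with the background of each array as a vertical line. Apart from these lines, levels are compared within a gene only. CRABP1 lay at 9.06 in HCT116-DKO and 6.50 in HCT116-WT, CRABP2 at 7.89 in HCT116-DKO and 9.93 in HCT116-WT, and 4 genes lay left of both background lines.

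The pair of binding proteins differed in opposite directions. CRABP1 rose to 9.06 in HCT116-DKO, against 6.50 in HCT116-WT, a difference of 2.56 (SD over 6 probe sets 1.48). It was not above background in HCT116-WT, so by these gene levels it was at least 3.95-fold higher in HCT116-DKO. That bound depends on the summary over probe sets. Setting the HCT116-WT level of CRABP1 to background gave a log2 difference of 1.98, whereas the mean over probe sets gave 1.83. CRABP2 fell to 7.89 in HCT116-DKO, against 9.93 in HCT116-WT, a difference of -2.04 (SD over 8 probe sets 0.63). CRABP2 was above background in both arrays, and its level was 4.11-fold lower in HCT116-DKO. Only 0.824% of all genes had a higher difference than CRABP1, and 0.111% had a lower one than CRABP2. At the gene level CRABP2 was above background in both arrays and CRABP1 in HCT116-DKO only, though 1 CRABP1 probe set was bright in HCT116-WT as well.

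The rise of CRABP1 was carried by 4 of its 6 probe sets, 1 of them dim in both arrays. In the order of their IDs the 6 probe sets gave 8.94, 6.63, 8.82, 9.47, 9.68 and 7.50 in HCT116-DKO, against 9.47, 6.15, 6.39, 6.45, 6.80 and 4.83 in HCT116-WT. The first and second differed by -0.53 and 0.48, and the other 4 by 2.43 to 3.02. The probe set at place 1 was bright in both arrays, whereas those at places 3 to 6 were each brighter in HCT116-DKO. This division by place was made after the values were seen. The limits for single probe sets were 7.68 in HCT116-DKO and 7.66 in HCT116-WT. By these limits places 3 to 5 were above background in HCT116-DKO only, and places 2 and 6 in neither array. With the probe sets at odd places alone, 3 in number, the difference was 2.43 and CRABP1 was not called, since the probe set at place 1 ran the other way. The deposited values carry no exon positions, so the exon of each probe set is not given here.

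The fall of CRABP2 was seen along the whole order of its probe-set IDs. Its 8 probe sets gave 5.92, 10.46, 9.40, 9.90, 7.60, 7.75, 5.14 and 7.34 in HCT116-DKO, against 7.71, 12.55, 11.91, 12.13, 10.57, 9.73, 6.78 and 8.18 in HCT116-WT. All 8 were lower in HCT116-DKO, with differences of -0.84 to -2.97. The smallest difference lay at place 8 and the largest at place 5. By the limits for single probe sets, 4 of the 8 were above background in HCT116-DKO and 7 in HCT116-WT. The probe set at place 5 was under that limit in HCT116-DKO, and the one at place 7 in both arrays.

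**Figure D2:**
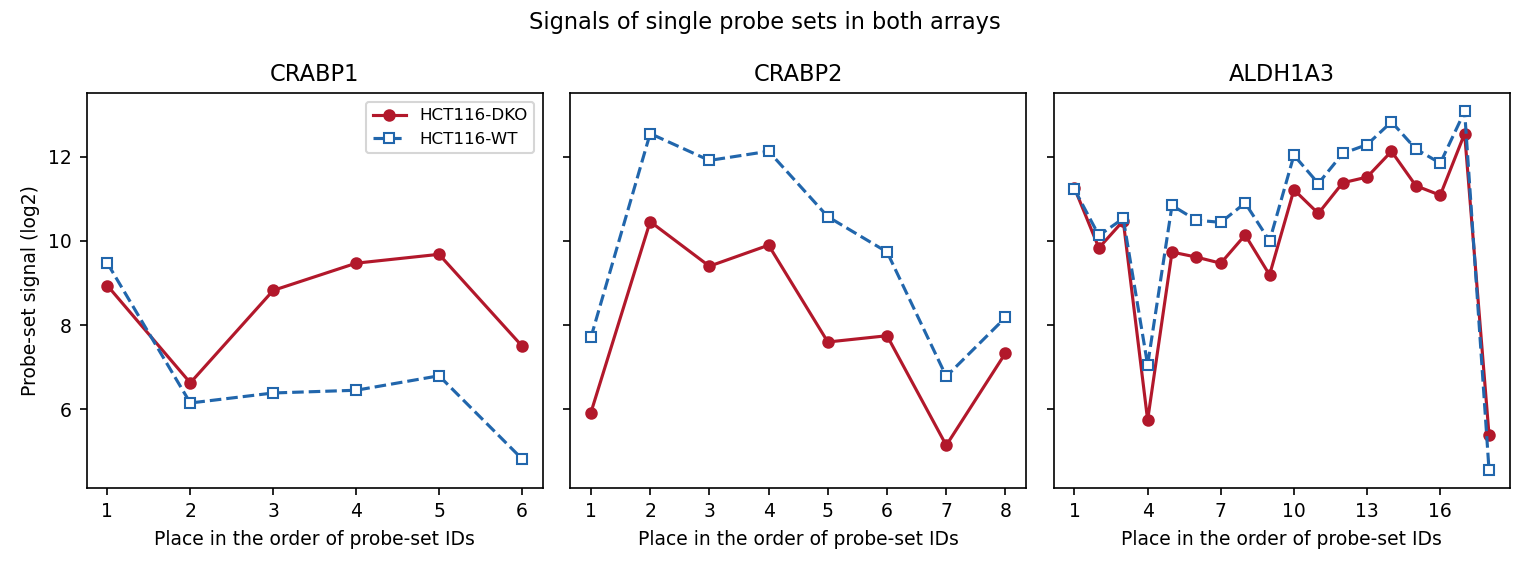
Log2 signal of each probe set of CRABP1, CRABP2 and ALDH1A3 in HCT116-DKO (filled circles) and HCT116-WT (open squares), against its place in the order of probe-set IDs. The CRABP1 lines part from place 3 on, the CRABP2 lines stay apart at all 8 places, and the ALDH1A3 lines run together at places 1 to 3 and part from place 4 to 17.

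The promoter windows of this pair are shown because DNA methylation in mammals sits mainly on CpG dinucleotides, which are in capitals. Each window runs from 250 bases before to 50 bases after a transcription start in RefSeq (GRCh38.p14), and all 9 genes matched that table. CRABP1 lies on the plus strand at chr15:78340103-78340402, and CRABP2 on the minus strand at chr1:156705735-156706034.
CRABP1: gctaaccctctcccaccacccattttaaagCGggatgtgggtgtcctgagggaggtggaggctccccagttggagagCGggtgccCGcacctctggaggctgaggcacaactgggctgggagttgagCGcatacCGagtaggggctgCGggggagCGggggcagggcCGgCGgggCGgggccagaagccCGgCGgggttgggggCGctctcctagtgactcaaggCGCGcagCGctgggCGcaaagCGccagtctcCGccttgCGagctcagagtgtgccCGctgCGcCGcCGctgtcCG
CRABP2: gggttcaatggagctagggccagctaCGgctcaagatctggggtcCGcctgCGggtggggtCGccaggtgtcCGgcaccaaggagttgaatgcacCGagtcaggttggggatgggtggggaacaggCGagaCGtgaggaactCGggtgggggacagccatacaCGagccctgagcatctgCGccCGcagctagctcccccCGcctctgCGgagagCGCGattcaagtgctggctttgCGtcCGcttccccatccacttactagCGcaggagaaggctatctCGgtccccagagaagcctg
The CRABP1 window held 25 CpGs and the CRABP2 window 20, against a median of 14 over the 35116 windows of all genes. Fewer CpGs than in CRABP1 were counted in 68.0% of all windows, and fewer than in CRABP2 in 58.8%. The genes that differed in opposite directions thus both had more CpGs than the median window. The methylation of these windows was not analysed here.

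None of the 3 synthesis genes was called. ALDH1A3 was the only one above background, at 10.38 in HCT116-DKO and 11.14 in HCT116-WT. Its difference of -0.76 (SD over 18 probe sets 0.49) makes it 1.69-fold lower in HCT116-DKO, with 16 of 18 probe sets lower. Among the 10782 genes above background in both arrays, 4.34% differed by at least as much in either direction. ALDH1A3 thus missed the demand of a log2 difference of 1, and it was called lower when that demand was 0.58.

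The difference of ALDH1A3 was uneven along the order of its IDs. The probe sets at places 1 to 3 gave 11.25, 9.83 and 10.47 in HCT116-DKO, against 11.22, 10.13 and 10.53 in HCT116-WT, with differences between -0.30 and 0.03. Those at places 4 to 17, 14 in number, were all lower in HCT116-DKO, with differences of -0.53 to -1.31 and a median of -0.79. The -1.31 was that of place 4, which was under the limits for single probe sets in both arrays. Without it, places 5 to 17 gave -0.53 to -1.11. The last, at place 18, was dim in both arrays, at 5.39 in HCT116-DKO and 4.56 in HCT116-WT. These stretches, too, were chosen after the values were seen.

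ALDH1A2, the enzyme that supplies most retinoic acid to the early embryo, was above background in neither array, at 6.82 in HCT116-DKO and 5.98 in HCT116-WT. Its difference was 0.84 (SD over 18 probe sets 0.90), and 15 of 18 probe sets were higher in HCT116-DKO. In single probe sets, background was set as the 95th percentile of the olfactory receptor probe sets, 7.68 in HCT116-DKO and 7.66 in HCT116-WT. By that measure 5 ALDH1A2 probe sets were above background in HCT116-DKO and 0 in HCT116-WT. These 5 gave 8.64, 7.93, 7.98, 7.92 and 8.67 in HCT116-DKO, against 6.44, 6.97, 6.66, 7.21 and 7.59 in HCT116-WT. These 5 were picked out by their HCT116-DKO signal alone, so their differences had to lean to HCT116-DKO and are no support for a change. Of the 4464 genes above background in neither array, 4.93% had a difference at least as high.

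ALDH1A1, a marker of stem-like cells in several epithelia, was also above background in neither array, at 4.99 in HCT116-DKO and 5.16 in HCT116-WT. Its difference was -0.17 (SD over 16 probe sets 0.62), with 6 probe sets higher and 10 lower in HCT116-DKO. The only probe set above background, at place 16, gave 7.92 in HCT116-DKO and 8.20 in HCT116-WT. The widest difference was that of the probe set at place 4, at 6.30 in HCT116-DKO and 4.57 in HCT116-WT, both under the probe-set background. No direction can be read for ALDH1A1 at this signal.

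CYP26A1, the enzyme that starts the removal of retinoic acid and is itself induced by it, was above background in neither array. Its level was 6.68 in HCT116-DKO and 5.99 in HCT116-WT, a difference of 0.69 (SD over 10 probe sets 0.54), and 8 of 10 probe sets were higher in HCT116-DKO. The only probe set above background, at place 8, gave 8.21 in HCT116-DKO and 7.11 in HCT116-WT. A difference at least as high was found in 6.83% of the genes above background in neither array. The level of CYP26A1 was too low for a fold.

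Of the 3 receptors RARA and RARG were above background in both arrays and RARB in neither, and 0 were called. RARA, at 8.38 in both arrays, differed by -0.0026 (SD over 21 probe sets 0.49), with 10 probe sets higher and 11 lower in HCT116-DKO. Its widest probe-set difference, -1.61, was at low signal, 3.76 in HCT116-DKO and 5.37 in HCT116-WT. Of the 10782 genes above background in both arrays, 99.2% differed by at least as much as RARA, so it was among the least different. That rank holds for the values as deposited, since the RARA difference was -0.11 under quantile normalization. RARG was at 8.44 in HCT116-DKO and 8.82 in HCT116-WT, a difference of -0.38 (SD over 16 probe sets 0.28). This is 1.30-fold lower in HCT116-DKO, with 14 of 16 probe sets lower, and 19.4% of genes above background in both arrays differed by at least as much. RARG was thus lower in most of its probe sets but by less than the rule demands.

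RARB, the receptor that retinoic acid induces, was at 5.87 in HCT116-DKO and 5.74 in HCT116-WT. Its difference was 0.13 (SD over 14 probe sets 0.78), with 10 of 14 probe sets higher in HCT116-DKO, and it turned to -0.027 under quantile normalization. Of these 14, 4 were higher by at least 1 and 1 was lower by at least 1, all of them under the probe-set background in both arrays. The probe set at place 1 was the only one above background, at 7.72 in HCT116-DKO and 7.67 in HCT116-WT. RARB signal was therefore not detected above background as a gene in either line.

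**Figure D3:**
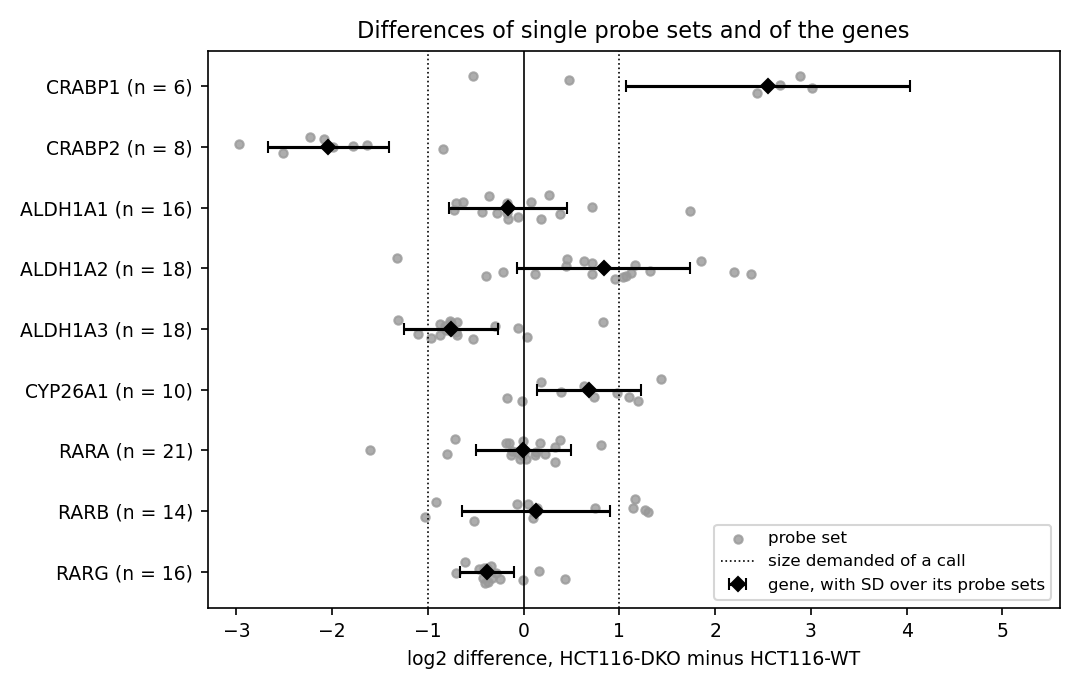
log2 difference (HCT116-DKO minus HCT116-WT) of each probe set (grey) and of each gene (diamond, bar = SD over its probe sets within 1 pair of arrays, no replicate error); dotted lines mark differences of -1 and 1. All 8 CRABP2 probe sets lie left of 0, the 6 of CRABP1 fall into 2 near 0 and 4 above 2, and the RARA points lie on both sides of 0, with 1 at -1.61, while 14 of 16 RARG points lie left of 0.

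RARB and CYP26A1 are shown next because their promoter windows were the only ones of the 9 genes to hold a repeat of retinoic acid half-sites. The half-sites searched were the consensus AGGTCA, the variant AGTTCA, the variant GGGTCA and the variant GGTTCA, on both strands, with a pair in the same orientation 5 or 2 bases apart. A pair with a gap of 5 was present in 31 of 35116 windows (0.0883%) and a pair with a gap of 2 in 14 (0.0399%). Only the half-sites of the pair are in capitals in the stretches printed here, with 30 bases on each side. The RARB window held 3 half-sites in all, and gggtca, at the start of its stretch, is not part of the pair. The stretches are printed from the plus strand, at chr3:25428180-25428256 for RARB and at chr10:93073773-93073849 for CYP26A1 (GRCh38.p14). In CYP26A1 the capitals read TGAACT, the reverse complement of AGTTCA, so that pair matched on the minus strand.
RARB: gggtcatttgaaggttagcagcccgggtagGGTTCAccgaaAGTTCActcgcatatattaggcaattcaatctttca
CYP26A1: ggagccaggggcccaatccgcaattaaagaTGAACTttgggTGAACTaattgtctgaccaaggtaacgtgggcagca
Both genes with such a repeat were above background in neither array. A match of letters is a description and no bound site, and binding was not analysed here. RARB has 4 windows in the table, and this repeat was in the one with 7 CpGs, whereas the window with most CpGs held 33. CYP26A1 has 2 windows, with 12 and 32 CpGs, and the repeat was in the second.

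The window with most CpGs among the 9 genes did not belong to a called gene. The ALDH1A3 window held 46 CpGs, more than 97.1% of all windows, and ALDH1A3 was 1.69-fold lower in HCT116-DKO. Of the ALDH1A2 windows 1 held 41 CpGs and the other 1. ALDH1A1 held 7 and RARG 14, and the 3 RARA windows held 12, 19 and 22. These counts are a description of the reference sequence over 16 windows and were not tested.

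**Figure D4:**
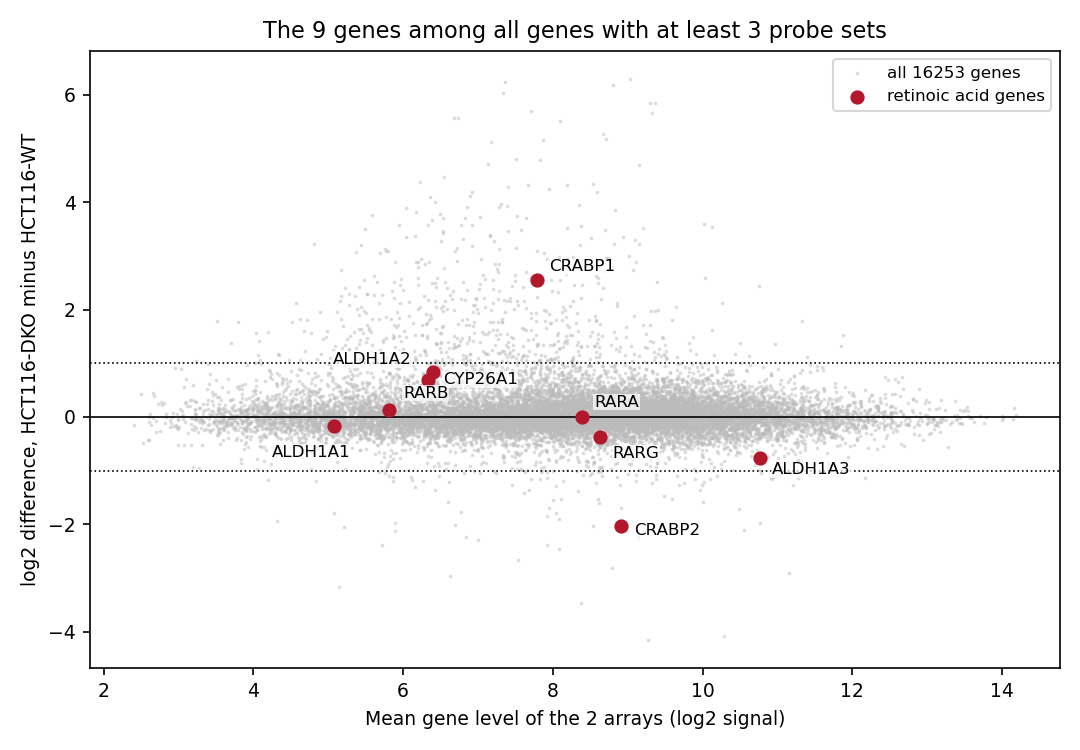
log2 difference (HCT116-DKO minus HCT116-WT) against the mean level of both arrays for 16253 genes (grey) and the 9 retinoic acid genes (red); dotted lines mark differences of -1 and 1. CRABP1 at 2.56 and CRABP2 at -2.04 stand beyond the dotted lines, and the other 7 lie between -0.76 and 0.84.

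Other genes of the pathway were taken from 5 lists, 78 genes in all, of which 74 had at least 3 probe sets. Of these 74, 6 were higher in HCT116-DKO, 0 were lower and 68 were not called, beside 2.66% higher and 0.535% lower over all genes. Their median difference was 0.088, and 26 were above background in neither array, beside 27.5% of all genes tested. The 6 were RBP4, SDR16C5, PRAME, HOXB4, HOXB5 and ICAM1. Because the lists were chosen with earlier results of these data known, their counts are a description and no support for an excess.

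Of 8 binding and transport genes 1 was called, RBP4, which encodes the plasma carrier of retinol. RBP4 rose to 8.24 in HCT116-DKO, against 5.14 in HCT116-WT (difference 3.10, SD over 9 probe sets 2.28), at least 2.24-fold higher, with 8 of 9 probe sets higher. The list's median difference was 0.025.

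Of 27 enzymes that act on retinol and retinal 1 was called, SDR16C5, a dehydrogenase that oxidises retinol to retinal. SDR16C5 rose to 7.59 in HCT116-DKO, against 5.58 in HCT116-WT (difference 2.01, SD over 14 probe sets 1.42), at least 1.43-fold higher, with 14 of 14 probe sets higher. The list's median difference was 0.059, and 16 of the 27 were above background in neither array, beside 27.5% of all genes tested. LRAT, which stores retinol as esters and was picked after its value was seen, was at 6.95 in HCT116-DKO and 6.05 in HCT116-WT, below background in both. The 2 breakdown enzymes beside CYP26A1 were not called, with CYP26B1 at 7.76 in HCT116-DKO and 7.73 in HCT116-WT, and CYP26C1 at 7.95 in HCT116-DKO and 7.77 in HCT116-WT.

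Of 19 RXR receptors and coregulators 1 was called, PRAME, a tumour antigen of the germline that can repress retinoic acid receptors. PRAME rose to 11.96 in HCT116-DKO, against 10.84 in HCT116-WT, 2.17-fold (difference 1.12, SD over 15 probe sets 0.37), with 14 of 15 probe sets higher. The partner receptors, named after their values were seen, were not called: RXRA was at 8.90 in HCT116-DKO and 8.80 in HCT116-WT, and RXRB at 9.46 in HCT116-DKO and 9.45 in HCT116-WT. RXRG was above background in neither array. The list's median difference was 0.10.

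Of 23 known target genes of retinoic acid 3 were called higher, 0 lower and 20 not at all, with a median difference of 0.14. HOXB5, a homeobox gene of body patterning, rose to 9.89 in HCT116-DKO, against 7.30 in HCT116-WT (difference 2.59, SD over 7 probe sets 1.27), 6.04-fold. HOXB4 of the same cluster rose to 8.95 in HCT116-DKO, against 7.72 in HCT116-WT, 2.34-fold (difference 1.23, SD over 10 probe sets 1.47). ICAM1, an adhesion molecule that inflammatory signals also induce, rose to 8.73 in HCT116-DKO, against 7.09 in HCT116-WT, 3.13-fold (difference 1.65, SD over 10 probe sets 0.81). In HCT116-WT the level of ICAM1 barely passed the background of 7.08, and that of HOXB5 lay near it. Both folds therefore rest on dim signal in HCT116-WT. HOXB4 and HOXB5 are neighbours on 1 chromosome, and each target has other known regulators, whose part was not tested. HOXB1 of the same list, picked after its value was seen, was not called. Its level was 6.66 in HCT116-DKO and 6.80 in HCT116-WT, below background in both.

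Other targets came near a call or differed little, and these were picked after their values were seen. TGM2, tissue transglutaminase, was at 8.75 in HCT116-DKO and 7.78 in HCT116-WT, a difference of 0.96. PLAAT4, a retinoid-induced tumour suppressor, was at 7.66 in HCT116-DKO and 6.68, not above background, in HCT116-WT, and was not called. MEIS1, a homeobox cofactor, was at 6.56 in HCT116-DKO and 5.34 in HCT116-WT, below background in both. DHRS3, which turns retinal back into retinol and is among the targets most used as a readout of retinoic acid, was at 8.81 in HCT116-DKO and 9.08 in HCT116-WT, a difference of -0.27.

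**Figure D5:**
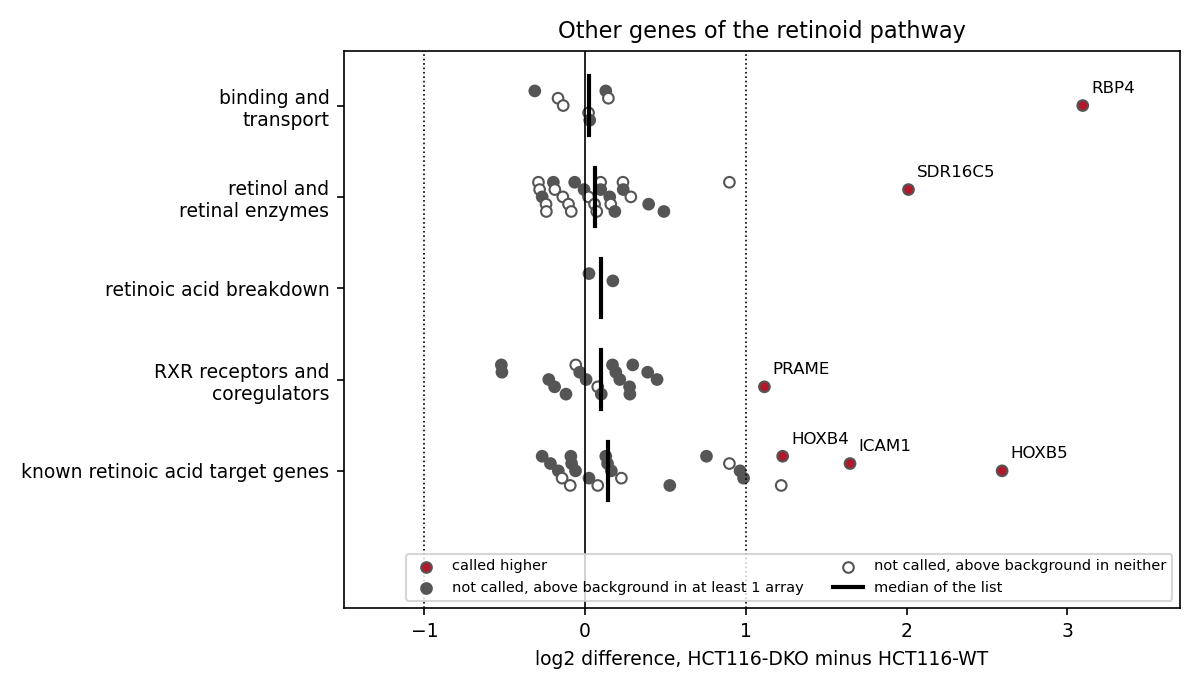
log2 difference (HCT116-DKO minus HCT116-WT) of each gene in the 5 lists of other pathway genes; red marks the called genes, white those above background in neither array, and a bar the median of each list. The 6 called genes lie right of the dotted line at 1, as does MEIS1, which was above background in neither array, and all 5 medians lie between 0.025 and 0.14.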

How the data were processed

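Total RNA of HCT116-DKO and HCT116-WT was hybridised to Affymetrix human exon 1.0-ST arrays, 1 per line. The authors deposited log2 signals for 287329 exon-level probe sets; the submitters' processing notes name RMA, and the study's methods also name Affymetrix Expression Console and Partek. The set of arrays that entered the normalization was not stated in the methods or labels. Array medians were 8.37 in HCT116-DKO and 8.28 in HCT116-WT. Arrays carry no read depth, and with 1 array per line the precision between arrays cannot be estimated.

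Gene names came from the platform annotation held by GEO, with symbols updated through RefSeq (GRCh38.p14): 261481 probe sets had 1 gene, 8947 several (left out) and 16901 none. Gene levels, calls and figures were computed in Python 3.11.15 with numpy 2.4.6, pandas 2.3.3 and matplotlib 3.10.9, and the procedure was tested on simulated data. Those data put known shifts on bright genes only, with the spread over probe sets reduced. The test therefore does not cover dim genes or genes with uneven probe sets. Where the dimmer array was not above background, the fold was taken against background, or the gene's own level if higher. Such a fold, written as at least, is a bound for the median polish level only. All 9 genes and called list genes (otherwise up to 2 of the brightest above background in both arrays) were named, and genes picked outside this rule are marked so. Genes nearest to a member in level, also foreseen, were left out because levels of different probe sets are not on 1 common scale. The background limit, the summed signals of marker lists and the choice of the brightest genes share that weakness and are rough guides only. The members and lists were chosen with earlier results of these data known. Alternatives changed the normalization, the summary over probe sets, the probe sets kept, the background and the thresholds. RefSeq promoters were searched for CpGs and half-site repeats. Cross-hybridisation between related genes was not tested.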

Additional observations from a re-analysis of the deposited data

How the results depend on the processing

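Each of the 9 differences was recomputed under 9 alternatives, and the calls under 14. CRABP2 ranged from -2.15 to -2.01 and was called in all 9, and CRABP1 ranged from 1.83 to 2.68 and was called in 8. The exception was the setting with probe sets at odd places alone, where 0 members were higher. These tallies include settings that could not differ. Adding shared probe sets changed no member, since none listed a member, and the median of probe-set differences gave the main values again. Setting levels to background could not move CRABP2, which was above background in both arrays. Members higher numbered 2 with brighter probe sets only, which added ALDH1A2 through 5 probe sets above background in HCT116-DKO and 0 in HCT116-WT, so that the selection itself favoured a positive difference, and members lower numbered 2 at a log2 threshold of 0.58, which added ALDH1A3. Under the other alternatives the counts were 1 and 1. Setting levels below background to background brought CYP26A1 to 0, as the construction of that alternative gives for any gene below background in both arrays, ALDH1A2 included. ALDH1A3 ranged from -0.85 to -0.62 and RARG from -0.47 to -0.30. RARA, from -0.11 to 0.027, and RARB, from -0.027 to 0.26, changed sign within their range and were called under none. Quantile normalization moved the median over all genes to -0.066, against 0.022 as deposited.

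Among all genes, calls higher in HCT116-DKO ranged from 221, with the 99th percentile as background, to 921, with the threshold of 0.58. Calls lower ranged from 31, at a threshold of 1.5, to 292, at 0.58. Other pathway genes higher in HCT116-DKO numbered 4 to 9, and 0 were lower under any of the 14 alternatives. No paired analysis was possible because each line had 1 array, and for the same reason no replicate could be left out. Above background in neither array were 4 of 9 genes, beside 27.5% of all genes tested. Differences of these 4, ALDH1A1, ALDH1A2, CYP26A1 and RARB, are limited by signal.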
